A study of Mus musculus with 12 samples.

Results

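The mouse mitochondrial genome encodes 37 genes, and all 37 were listed in the deposited count files among 38924 genes. They were found as the genes whose symbol starts with mt-, after the Ensembl identifiers had been matched to GENCODE M21. The group holds 13 mRNAs, 2 rRNAs and 22 tRNAs. RNA had been sequenced from sections of the proximal colon of 12 female C57BL/6 mice aged 6 weeks. Of these, 6 were APC Min/+ mice, heterozygous throughout the body for the Min truncating mutation of *Apc*, and 6 were WT mice, with no treatment in either group. The genotypes were housed in separate cages, and the labels do not say which mouse came in which shipment, so cage and genotype cannot be told apart and shipment could not be used.

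Mitochondrial DNA is a small circular genome present in many copies per cell. Both of its strands are transcribed into long precursors by the RNA polymerase Polrmt, with the help of Tfam and Tfb2m, and the tRNAs that lie between most of the other genes are cut out to release the mRNAs and rRNAs. The mRNAs encode core subunits of the respiratory chain (complexes I, III and IV) and of the ATP synthase, whose remaining subunits come from the nucleus. Colonic epithelial cells rely heavily on mitochondrial oxidation of short-chain fatty acids, and *Apc* is a negative regulator of Wnt signalling in their progenitors. The comparison asked how much of the RNA of each mouse came from these genes, in what proportions, and whether the genotypes differed.

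By the strand given in the annotation, 28 of the members are read from the plus strand (12 mRNAs, both rRNAs and 14 tRNAs), which are the heavy-strand transcripts, and 9 from the minus strand (the mRNA mt-Nd6 and 8 tRNAs). Stretches of mitochondrial DNA have also been copied into the nuclear chromosomes during evolution, and some of these copies are so similar that a read cannot be assigned to 1 origin. Every run of 31 bases of each member was therefore looked up in the annotated nuclear transcripts of GENCODE M21 (GRCm38). All runs of mt-Co2 (100%) had an exact nuclear match, as did 99.9% of those of mt-Co3, 99.5% of mt-Atp6, 98.9% of mt-Nd4l and 98.1% of mt-Nd3. The shares were 63.9% in mt-Co1 and 62.8% in mt-Nd4. They lay at 16.8% in mt-Nd5, 13.5% in mt-Nd2, 7.47% in mt-Atp8, 7.36% in mt-Nd6, 6.55% in mt-Cytb and 2.71% in mt-Rnr2, and were 0 in mt-Nd1 and mt-Rnr1. Among the tRNAs only mt-Ty had any (10.8%). With runs of 100 bases, the read length, the shares were 60.8% in mt-Nd4, 30.8% in mt-Co1 and 3.19% in mt-Nd2. They were 0 in mt-Nd5, mt-Atp8, mt-Nd6, mt-Cytb, mt-Rnr2, mt-Nd1 and mt-Rnr1. In mt-Co2, mt-Co3, mt-Atp6, mt-Nd4l and mt-Nd3 they stayed between 97.6% (mt-Nd3) and 99.9% (mt-Co3). Nuclear sequence outside annotated transcripts was not searched, so a share of 0 does not exclude a nuclear copy.

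Most of the exact matches came from 1 block on chromosome 1, on the minus strand at chr1:24611535-24616197, where 7 annotated pseudogenes lie in mitochondrial order and correspond to chrM:6381-11042. The 233 bases between the copies of mt-Co2 and mt-Atp6 equal the 233 bases between the same stretches on the mitochondrial genome, and of the 6 gaps in the block only that between mt-Nd3 and mt-Nd4l differed, with 74 bases against 73. Outside annotated transcripts these gaps were not searched. Their mitochondrial counterparts hold all or most of mt-Ts1, mt-Td, mt-Tk, mt-Atp8, mt-Tg and mt-Tr. The copies of mt-Co2 (Gm28661, 681 bases), mt-Atp6 (Gm10925, 678 bases), mt-Co3 (Gm28437, 783 bases), mt-Nd4l (Gm10222, 294 bases) and of the first 876 bases of mt-Nd4 (Gm28439) had no difference. The copy of mt-Nd3 (Gm28438) had 1 difference in 345 bases, T3C, with the mitochondrial base first and positions counted from the start of the gene. A second copy of mt-Co1, Gm13340 on chromosome 2, differed at 37 of 1545 positions. The next lines show, for the reader to compare, 100 bases of mt-Co2 (chrM:7303-7402, plus strand) beside Gm28661 (chr1:24615176-24615275, minus strand), and 100 bases of mt-Co1 (chrM:5331-5430, plus strand) beside Gm13340 (chr2:22589545-22589644, minus strand), all from GENCODE M21 transcripts of GRCm38. Capitals mark the 3 positions at which mt-Co1 and Gm13340 differ here (C54A, A60G and G87A).
mt-Co2: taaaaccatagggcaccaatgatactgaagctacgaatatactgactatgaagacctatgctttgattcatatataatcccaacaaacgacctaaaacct
Gm28661: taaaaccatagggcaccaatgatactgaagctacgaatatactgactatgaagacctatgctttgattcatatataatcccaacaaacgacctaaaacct
mt-Co1: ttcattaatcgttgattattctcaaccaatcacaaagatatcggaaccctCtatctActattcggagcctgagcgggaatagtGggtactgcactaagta
Gm13340: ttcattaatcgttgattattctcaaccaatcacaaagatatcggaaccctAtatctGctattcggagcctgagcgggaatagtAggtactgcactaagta

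The tRNAs are at the other extreme, with lengths from 59 to 75 bases, shorter than the 100-base reads. A full-length read counted on a tRNA gene therefore reaches into neighbouring sequence. Counts on these genes cannot be taken as levels of mature tRNA, and the part of precursors in them was not tested. The full sequences follow for some of those described below, namely mt-Tm, the tRNA for methionine (chrM:3845-3913, plus strand), mt-Tw, the tRNA for tryptophan (chrM:4950-5016, plus strand), and mt-Ts1, a tRNA for serine (chrM:6870-6938, minus strand).
mt-Tm: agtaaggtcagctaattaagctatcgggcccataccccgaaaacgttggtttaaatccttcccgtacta
mt-Tw: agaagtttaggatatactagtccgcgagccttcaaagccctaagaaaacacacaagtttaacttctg
mt-Ts1: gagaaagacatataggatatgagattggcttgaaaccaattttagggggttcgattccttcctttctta

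Total counts on genes lay between 81730206 and 197914821 in the APC Min/+ mice and between 50313805 and 117477400 in the WT mice. Several libraries stood apart before any genotype comparison. The APC Min/+ mice M10_2 and M13_1 had 491 and 608 summed CPM (counts scaled to the library total) of 4 posterior *Hox* genes, against 1.02 to 3.12 in the other 10 mice, although all samples were labelled proximal colon. The WT mice M18_2a and M17_1 had 38.5 and 59.6 summed CPM of 6 small nuclear-encoded RNAs that mostly lack a poly(A) tail (among them *Rn7sk* and *Rmrp*), against 1.19 to 10.4 in the others. M8_2 and M10_2 were the most deeply sequenced.

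Of all counts on genes, the 37 mitochondrial genes took a mean of 6.06% ± 1.53 in the APC Min/+ group and 7.93% ± 2.50 in the WT group (SD, n = 6 each). In the APC Min/+ mice the share was 4.35% in M10_2, 4.92% in M13_1, 5.34% in M8_2, 6.19% in M18_2b, 7.12% in M20_1 and 8.46% in M2_A. In the WT mice it was 6.00% in M17_2, 6.02% in M19_1, 6.95% in M18_b, 7.84% in M16_1, 8.08% in M18_2a and 12.7% in M17_1. The genotypes overlapped, the 3 lowest mice were all APC Min/+ and the highest was WT. The difference between the means was -1.87 percentage points, but it was -0.913 without M17_1, -0.636 without M17_1 and M18_2a, and -1.15 without M10_2 and M13_1. The 95% Wilson intervals of these shares reached at most 0.00656 percentage points to either side, which covers counting error only. A share of bulk RNA does not tell fewer mitochondria-rich cells from less mitochondrial RNA per cell.

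**Figure D1:**
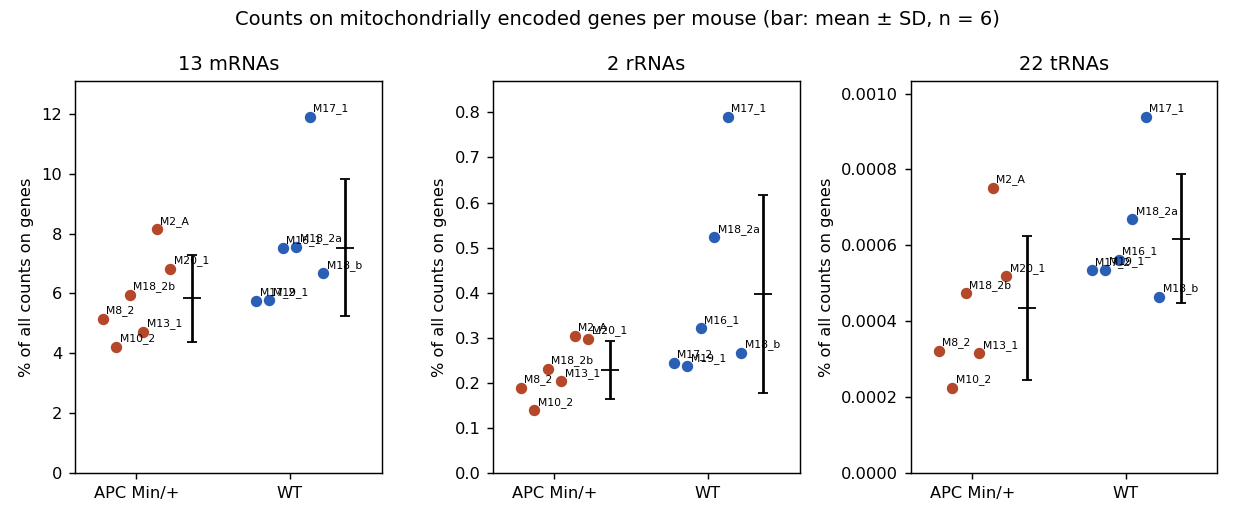
Percent of all counts on genes (y axis) that fell on the 13 mRNAs, 2 rRNAs and 22 tRNAs of the mitochondrial genome, with 1 point per mouse, APC Min/+ in red and WT in blue, and bars for the mean ± SD (n = 6). The genotypes overlap in every panel, and the WT mouse M17_1 is the highest point in each.

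The mRNAs accounted for 95.6% of the mitochondrial counts summed over all mice, the rRNAs for 4.44% and the tRNAs for 0.00731%. The mRNA of mt-Co1, the catalytic subunit of cytochrome c oxidase (complex IV), alone took 56.9%. It was followed by mt-Cytb, the cytochrome b subunit of complex III, with 13.3%, and by the complex I subunits mt-Nd1 with 8.41%, mt-Nd5 with 6.60%, mt-Nd4 with 4.59% and mt-Nd2 with 4.10%. The large rRNA mt-Rnr2 took 2.91% and the small rRNA mt-Rnr1 1.53%. The remaining 7 mRNAs (mt-Co2, mt-Co3, mt-Atp6, mt-Atp8, mt-Nd3, mt-Nd4l and mt-Nd6) each took under 1%, from 0.515% for mt-Co2 down to 0.0283% for mt-Nd4l.

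Per length, as RPKM (CPM divided by the gene length in kilobases) averaged over the 12 mice, the order began with mt-Co1 at 25924 ± 7881 (SD), mt-Cytb at 8056 ± 2483 and mt-Nd1 at 6147 ± 2155, and in all 12 mice each of these was above the next. Then came mt-Nd2 (2739), mt-Nd5 (2478) and mt-Nd4 (2311), whose order was not stable, as mt-Nd2 exceeded mt-Nd5 in 8 of 12 mice and mt-Nd5 exceeded mt-Nd4 in 9 of 12. The rRNAs followed with mean RPKM of 1289 for mt-Rnr2 and 1134 for mt-Rnr1, below 6 of the mRNAs in these libraries, in the order mt-Nd4, mt-Rnr2, mt-Rnr1, mt-Co2 in all 12 mice. The next mean RPKM values were 545 for mt-Co2, 426 for mt-Co3, 403 for mt-Atp6 and 401 for mt-Atp8, with mt-Atp6 above mt-Atp8 in only 4 of 12 mice. The lowest mRNAs were mt-Nd3 (93.5 RPKM), mt-Nd4l (67.8 RPKM) and mt-Nd6, the complex I subunit that is the only mRNA on the light strand, at 48.9 ± 26.4 RPKM (SD, n = 12).

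Subunits of 1 complex were thus listed at very different levels. Within complex IV, mt-Co1 reached 25924 RPKM, whereas mt-Co2 and mt-Co3, which form the rest of its mitochondrially encoded core, stood at 545 and 426 RPKM. The 5 mRNAs with over 90% of their 31-base runs in nuclear transcripts were listed at mean RPKM from 67.8 to 545, and the 6 mRNAs with under 20% at 48.9 to 8056. The 2 mRNAs in between, mt-Co1 (63.9%) and mt-Nd4 (62.8%), were at 25924 and 2311 RPKM, so level did not simply follow this share. In the first group are mt-Co2, mt-Atp6, mt-Co3, mt-Nd3 and mt-Nd4l. In the second, mt-Atp8 and mt-Nd6 were low as well. However, most of mt-Atp8 falls in the 233-base gap of the chromosome 1 block, which was not searched outside annotated transcripts. Its share of 7.47% may therefore be too low. How the counting treated reads with several equally good alignments is not given in the sources used here. The levels of mt-Co2, mt-Co3, mt-Atp6, mt-Atp8, mt-Nd3, mt-Nd4l, mt-Nd4 and mt-Co1 are therefore uncertain. The part of the nuclear copies in these levels was not tested.

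**Figure D2:**
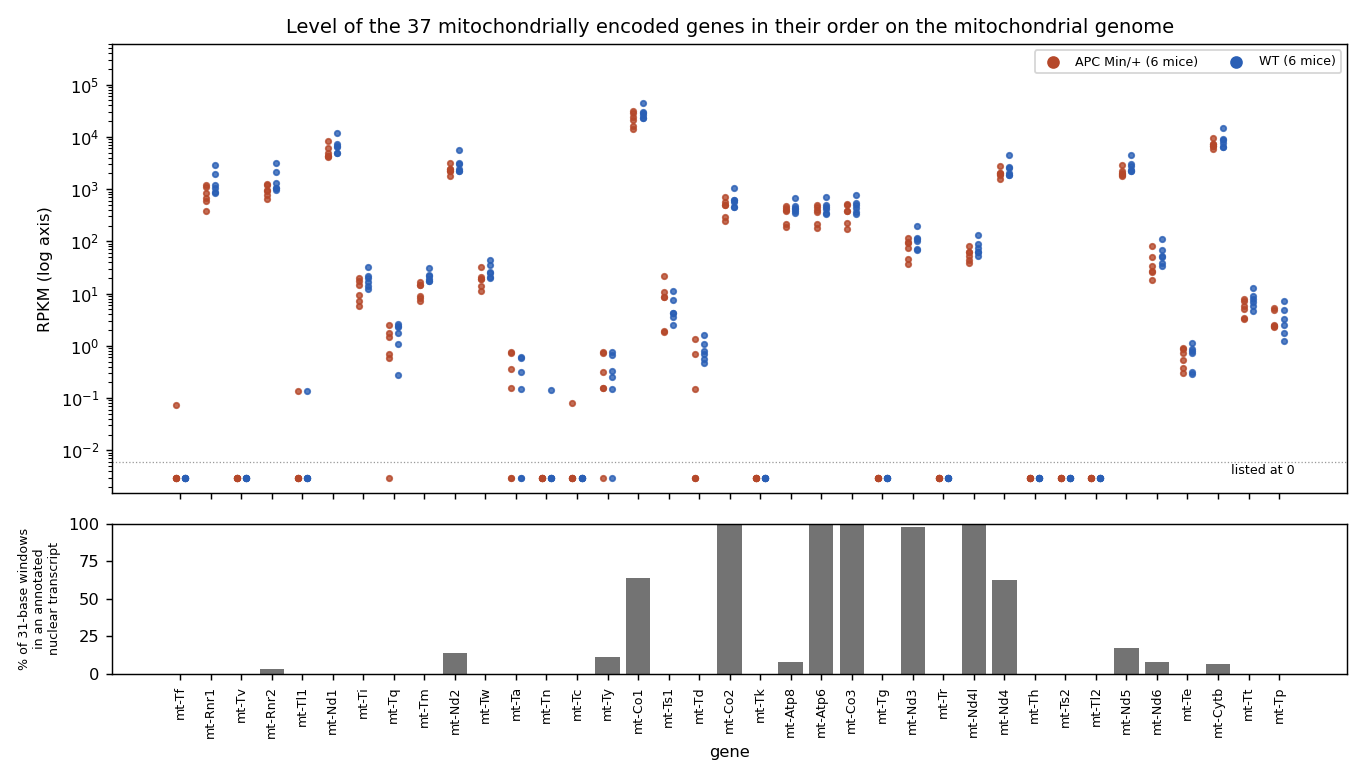
Upper panel, level of each of the 37 genes in RPKM (log axis) with 1 point per mouse (APC Min/+ red, WT blue), genes in their order on the mitochondrial genome and values of 0 placed under the dotted line. Lower panel, percent of each gene's 31-base runs that match an annotated nuclear transcript exactly. The mRNAs from mt-Co2 to mt-Nd4l sit 1 or more decades below mt-Co1, and 5 of those 6 have tall bars. The bars of mt-Co1 (63.9%) and mt-Nd4 (62.8%), which sit higher in the upper panel, are also tall.

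Some of the nuclear copies were themselves counted. Gm13341, a copy of mt-Co2 on chromosome 2, had 61.6% to 102.5% of the counts of mt-Co2, with 102% in M8_2 and 102.5% in M10_2 and at most 79.9% in the other 10 mice. Gm10222, the identical copy of mt-Nd4l, had 74.7% to 95.4% of the counts of mt-Nd4l. Gm13340 had only 1.55% to 2.29% of the counts of mt-Co1. In the same pair of mice, M8_2 and M10_2, the 6 mRNAs from mt-Co2 to mt-Nd4l made up 1.10% and 1.13% of the mitochondrial counts, against 1.44% to 2.12% in the other 10 mice, and mt-Co2 had 4.84% and 4.23% of the counts of mt-Nd1, against 6.00% to 8.02%. These 2 mice were APC Min/+, so every fold change of these genes rests partly on them.

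Neighbouring genes also share bases. The reading frames of mt-Atp8 and mt-Atp6, both subunits of the ATP synthase, overlap by 43 bases, those of mt-Nd4l and mt-Nd4 by 7, and mt-Nd5 and mt-Nd6 overlap by 14 bases on opposite strands. Whether the counting used strand is not given in the sources used here, so at such places the origin of a read cannot be told apart.

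The tRNAs were hardly counted. No tRNA exceeded 329 counts in a library, and all 22 together had 6532 counts over the 12 mice. A group of 7 tRNAs (mt-Tv, mt-Tk, mt-Tg, mt-Tr, mt-Th, mt-Ts2 and mt-Tl2) had 0 counts in every mouse, which at 3 counts per library allows up to 0.0152 CPM in the deepest and 0.0596 CPM in the shallowest library. All of these are plus-strand genes. By position, mt-Tk, mt-Tg and mt-Tr fall in the gaps of the chromosome 1 block, and the part of this in their counts was not tested. mt-Tf, mt-Tn and mt-Tc were counted once in 1 mouse each and mt-Tl1 once in each of 2 mice. mt-Ta, mt-Ty, mt-Td and mt-Te had at most 11 counts in any mouse.

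The other 7 tRNAs (mt-Ti, mt-Tq, mt-Tm, mt-Tw, mt-Ts1, mt-Tt and mt-Tp) had enough counts to be tested. The highest per length was mt-Tw at 23.9 ± 9.46 RPKM (SD, n = 12), followed by mt-Tm at 16.7 and mt-Ti at 15.9 RPKM, whose order did not hold in 5 of the 12 mice. The tRNAs mt-Ti, mt-Tq and mt-Tm, which sit side by side between mt-Nd1 and mt-Nd2, differed in level, with mt-Tq, the minus-strand gene between the other two, at 1.46 RPKM. mt-Ts1, which lies on the minus strand next to the end of mt-Co1 and overlaps it by 3 bases, was the most variable of the 7, with a coefficient of variation of 70.6% as a share of mitochondrial counts, against 16.9% for mt-Tw.

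Genotype was compared gene by gene with edgeR's quasi-likelihood test over the 20311 genes that reached 10 counts in 3 or more mice, which kept 22 members (all mRNAs and rRNAs and the 7 tRNAs). None passed an FDR (Benjamini-Hochberg) of 0.05 together with a difference of 2-fold or more, and over all genes tested the share called was also 0%. The lowest FDR of a member was 0.908 in edgeR's quasi-likelihood test. DESeq2 and edgeR's exact test also called 0 of the 22, with lowest adjusted p-values of 0.119 and 0.295. At an unadjusted p under 0.05, 5 members were lower in APC Min/+ mice and 0 higher, where the shares of all genes tested were 1.81% lower and 3.46% higher. The members share their template and their libraries, so these 5 are not independent of each other.

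Although no single member passed, the values lay on 1 side. The log2 fold change (APC Min/+ over WT) was below 0 for 21 of the 22 members, against 51.6% of all genes tested, and its median was -0.48, against -0.01 over all genes tested. All 13 mRNAs were between -0.61 (mt-Nd6) and -0.34 (mt-Cytb), the rRNAs at -0.93 and -0.80, and the tRNAs between -0.93 (mt-Tm) and 0.64 (mt-Ts1). The median was -0.31 without M10_2 and M13_1, -0.25 without M17_1 and M18_2a and, in a fit added after seeing the data, -0.30 without M8_2 and M10_2, and the number at an unadjusted p under 0.05 fell to 1, 1 and 2. The only member among these that was lower in APC Min/+ mice was mt-Tm, since the other of the last 2 was mt-Ts1, which was higher. In 20 of the 22 members the highest of the 12 mice was M17_1, and M10_2 was the lowest in 12.

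**Figure D3:**
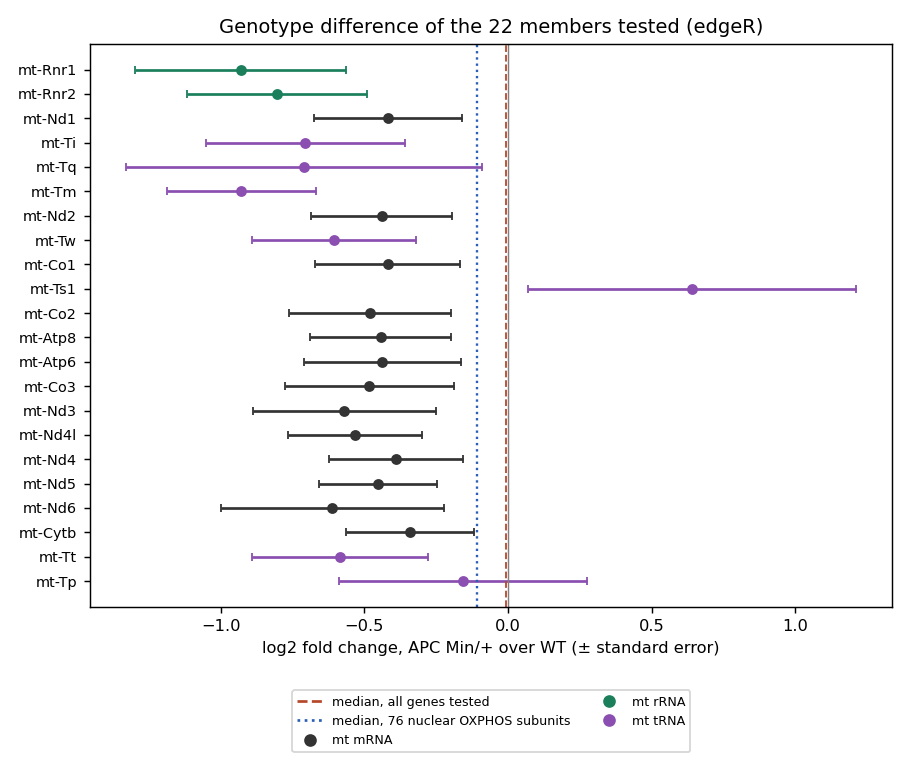
Log2 fold change (APC Min/+ over WT, x axis) with its standard error for the 22 mitochondrial genes tested with edgeR, in genome order, mRNAs in black, rRNAs in green and tRNAs in violet. The dashed line is the median of all genes tested (-0.01) and the dotted line that of 76 nuclear subunits of oxidative phosphorylation (-0.11), and mt-Ts1 is the only member to the right of 0.

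The most abundant mRNA, mt-Co1 (ENSMUSG00000064351.1, chrM:5328-6872), had a TMM-scaled level of 34585 ± 11806 CPM in the APC Min/+ group and 46246 ± 12766 CPM in the WT group (SD, n = 6 each). The APC Min/+ mice were at 20540 (M10_2), 22602 (M13_1), 32828 (M8_2), 36084 (M18_2b), 46106 (M20_1) and 49349 CPM (M2_A). The WT mice were at 33612 (M17_2), 35174 (M19_1), 45635 (M16_1), 45640 (M18_b), 48190 (M18_2a) and 69227 CPM (M17_1). M10_2 and M13_1 were below all others and M17_1 above, and the 9 mice in between were mixed by genotype. The log2 fold change was -0.42 (standard error 0.25, edgeR FDR = 0.908), but -0.17 without M10_2 and M13_1 and -0.23 without M17_1 and M18_2a.

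The complex I subunit mt-Nd1 (ENSMUSG00000064341.1, chrM:2751-3707), which has no match in the annotated nuclear transcripts, was at 3753 (M10_2), 3797 (M13_1), 4207 (M8_2), 4634 (M18_2b), 6174 (M20_1) and 7916 CPM (M2_A) in the APC Min/+ group. The WT mice had 4374 (M17_2), 4557 (M19_1), 6667 (M18_2a), 6754 (M18_b), 7086 (M16_1) and 11278 CPM (M17_1). M10_2 and M13_1 were again the lowest and M17_1 the highest. The log2 fold change was -0.42 (standard error 0.26), within the spread between mice, and it was -0.24 without M10_2 and M13_1 and -0.18 without M17_1 and M18_2a.

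Cytochrome b, mt-Cytb (ENSMUSG00000064370.1, chrM:14145-15288), ranged from 6752 CPM in M8_2 to 11184 CPM in M2_A among APC Min/+ mice and from 6920 CPM in M17_2 to 17425 CPM in M17_1 among WT mice. Unlike mt-Co1, it was not lowest in M10_2 (7360 CPM) and M13_1 (7499 CPM), both above the WT mice M17_2 and M19_1 (7287 CPM). At -0.34 on the log2 scale (standard error 0.22), it was the mRNA with the smallest difference, and it stood at -0.09 without M17_1 and M18_2a.

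The large rRNA mt-Rnr2 (ENSMUSG00000064339.1, chrM:1094-2675) had the second lowest unadjusted p of the members (0.0229, edgeR, FDR = 0.908). It was at 985 (M10_2), 1253 (M8_2), 1339 (M13_1), 1456 (M18_2b), 1932 (M2_A) and 2028 CPM (M20_1) in APC Min/+ mice, and at 1507 (M19_1), 1548 (M17_2), 1842 (M18_b), 2124 (M16_1), 3513 (M18_2a) and 5175 CPM (M17_1) in the WT group. On the log2 scale the fold change was -0.80 (standard error 0.31), and -0.24 without M17_1 and M18_2a. The small rRNA mt-Rnr1 (ENSMUSG00000064337.1, chrM:70-1024) was lowest in M10_2 with 340 CPM and highest in M17_1 with 2836 CPM. The fold change was -0.93 on the log2 scale (standard error 0.37), and -0.36 without that WT pair. Both rRNAs were highest in the 2 WT libraries that also had the most small RNA without poly(A) tails.

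The lowest p of any member was that of the methionine tRNA mt-Tm (ENSMUSG00000064344.1), whose sequence is printed above. The gene directly adjoins mt-Nd2, so its counts need not come from mature tRNA. Its counts were 46 (M13_1), 81 (M20_1), 92 (M10_2), 97 (M18_2b), 113 (M2_A) and 125 (M8_2) in APC Min/+ mice, and 77 (M17_2), 110 (M18_b), 116 (M16_1), 135 (M19_1), 183 (M18_2a) and 238 (M17_1) in WT mice. After TMM scaling these were 0.465 to 1.19 CPM in APC Min/+ mice and 1.21 to 2.19 CPM in WT mice, so the genotypes did not overlap, with 1.19 CPM in M2_A against 1.21 CPM in M16_1 at the boundary. Such a gap with APC Min/+ lower was found for 15 of the 20311 genes tested (0.0739%) and 1 of the 22 members, and with APC Min/+ higher for 9 genes (0.0443%) and 0 members. The log2 fold change was -0.93 (standard error 0.26, unadjusted p = 0.0033 and FDR = 0.908 from edgeR). It was -0.67 without M10_2 and M13_1, -0.74 without M17_1 and M18_2a and -0.57 with the mitochondrial total as library size. Relative to the mitochondrial total the genotypes overlapped, with 16.14 counts per 1000000 mitochondrial counts in the APC Min/+ mouse M18_2b against 15.1 in the WT mouse M16_1. In that scaling mt-Tm and mt-Rnr1 were the only members at an unadjusted p under 0.05, with an FDR of 0.327 for both in edgeR.

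Among the mRNAs the lowest unadjusted p belonged to mt-Nd4l, a complex I subunit (0.0395, edgeR, FDR = 0.908). Its TMM-scaled level was 11.5 to 21.7 CPM in APC Min/+ mice and 15.3 to 39.8 CPM in the WT group, so that they overlapped. Its log2 fold change of -0.53 (standard error 0.23) went to -0.22 without M17_1 and M18_2a. As stated above, an identical copy of this gene lies on chromosome 1. For mt-Nd5, another complex I subunit, the difference was -0.45 on the log2 scale (standard error 0.21, unadjusted p = 0.0453, edgeR, FDR = 0.908), and -0.21 (unadjusted p = 0.247) without M17_1 and M18_2a in the same edgeR test.

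The light-strand mRNA mt-Nd6 (ENSMUSG00000064368.1, chrM:13552-14070, minus strand) was at 8.64 (M13_1), 13.2 (M10_2), 13.7 (M8_2), 17.01 (M18_2b), 27.5 (M20_1) and 42.3 CPM (M2_A) in the APC Min/+ group. The WT mice had 16.3 (M17_2), 19.3 (M19_1), 27.4 (M16_1), 28.8 (M18_b), 37.1 (M18_2a) and 57.8 CPM (M17_1). At -0.61 the log2 fold change was the lowest among the mRNAs, but its standard error of 0.39 was wide, and without M10_2 and M13_1 it was -0.31, above that of mt-Nd4l (-0.55). Without M17_1 and M18_2a it was -0.19. The tRNA mt-Tw was at 0.717 to 2.21 CPM in APC Min/+ mice and 1.36 to 3.03 CPM in the WT group, for a difference of -0.60 on the log2 scale (standard error 0.29), or -0.29 without M17_1 and M18_2a and -0.35 without M10_2 and M13_1. mt-Ts1 was the only tested member with a higher mean in APC Min/+ mice, at 0.603 ± 0.501 CPM against 0.383 ± 0.215 CPM (SD, n = 6 each). However, 2 APC Min/+ mice, M10_2 and M8_2, were the lowest of all at 0.121 and 0.133 CPM. The log2 fold change of mt-Ts1, 0.64, rested on single mice, with 0.15 without M2_A and 1.14 without M8_2 and M10_2.

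Proportions within the mitochondrial transcripts were compared next. Taking the mitochondrial total as library size brings the members close to 0 by construction and moved the median log2 fold change of all genes tested to 0.42, so signs on that scale only place a gene against the mitochondrial mean. Ratios of single genes, which do not depend on library size, were compared with the exact two-sided permutation test over all 924 splits of the mice, where the smallest p possible is 0.00216, for 6 pairs of genes. None of the 6 passed, and in each the genotypes overlapped.

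**Figure D4:**
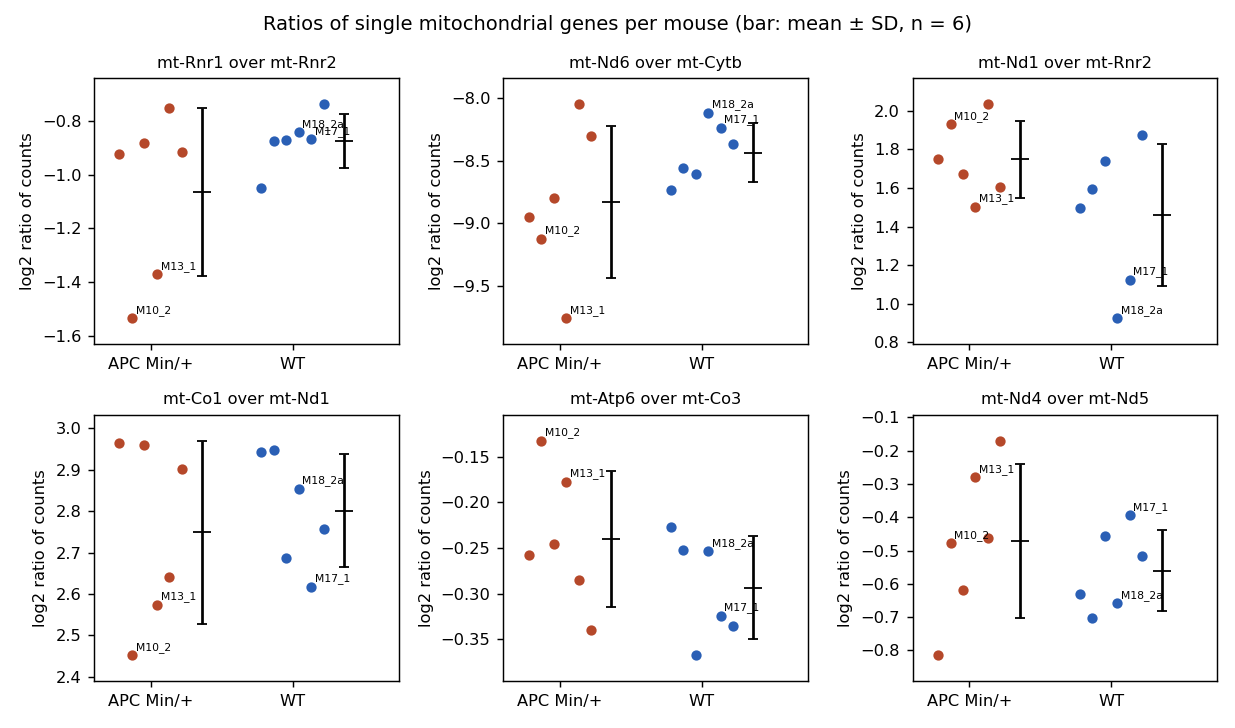
Log2 ratio of the counts of 2 mitochondrial genes in each mouse (y axis, 1 point per mouse, APC Min/+ red, WT blue) with mean ± SD (n = 6) for 6 pairs of genes. M10_2 and M13_1 are the lowest points for mt-Rnr1 over mt-Rnr2, mt-Nd6 over mt-Cytb and mt-Co1 over mt-Nd1, and M17_1 and M18_2a are the lowest for mt-Nd1 over mt-Rnr2.

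The ratio of the small to the large rRNA, which come from the same precursor, was -1.06 ± 0.31 in APC Min/+ mice and -0.87 ± 0.10 in WT mice on the log2 scale (SD, n = 6, difference -0.19, exact permutation p = 0.236, 0.354 adjusted over the 6 ratios). The values were -1.54 in M10_2 and -1.37 in M13_1, and between -1.05 and -0.74 in the other 10 mice. As counts, mt-Rnr1 had 34.5% and 38.7% of those of mt-Rnr2 in that pair and 48.3% to 60.0% elsewhere. Without the pair the difference was 0.00585, so it rested on these 2 mice.

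The ratio of mt-Nd1 to mt-Rnr2, an mRNA against the rRNA just upstream of it, differed by 0.29 on the log2 scale (exact permutation p = 0.126, 0.354 adjusted). The lowest values were 0.92 in M18_2a and 1.12 in M17_1, against 1.50 to 2.03 in the other mice, and without this WT pair the difference was 0.07. The ratio of mt-Nd6 to mt-Cytb, a light-strand against a heavy-strand mRNA, differed by -0.39 (exact permutation p = 0.171, 0.354 adjusted), and by -0.09 without M10_2 and M13_1, the lowest mice at -9.12 and -9.76. On the log2 scale the other 3 ratios differed by -0.05 for mt-Co1 to mt-Nd1, 0.05 for mt-Atp6 to mt-Co3 and 0.09 for mt-Nd4 to mt-Nd5, with adjusted exact permutation p-values of 0.617, 0.354 and 0.501. The ratio of mt-Atp6 to mt-Co3 had the narrowest range, with 77.5% to 91.2% of the counts of mt-Co3 on mt-Atp6 in the 12 mice.

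The libraries that stood apart in other RNAs did so within the mitochondrial transcripts too. In M10_2 and M13_1, mt-Co1 made up 49.5% and 50.4% of mitochondrial counts, against 53.8% to 62.0% in the other 10 mice, and mt-Cytb 17.7% and 16.7%, against 11.7% to 13.5%. These are the mice with posterior *Hox* expression. In M18_2a and M17_1 the rRNAs made up 6.47% and 6.22% of mitochondrial counts, against 3.19% to 4.17% in the other 10. These are the mice with the most small RNA without poly(A) tails. Neither pair was treated differently according to the labels, and the part of either feature in these proportions was not tested.

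**Figure D5:**
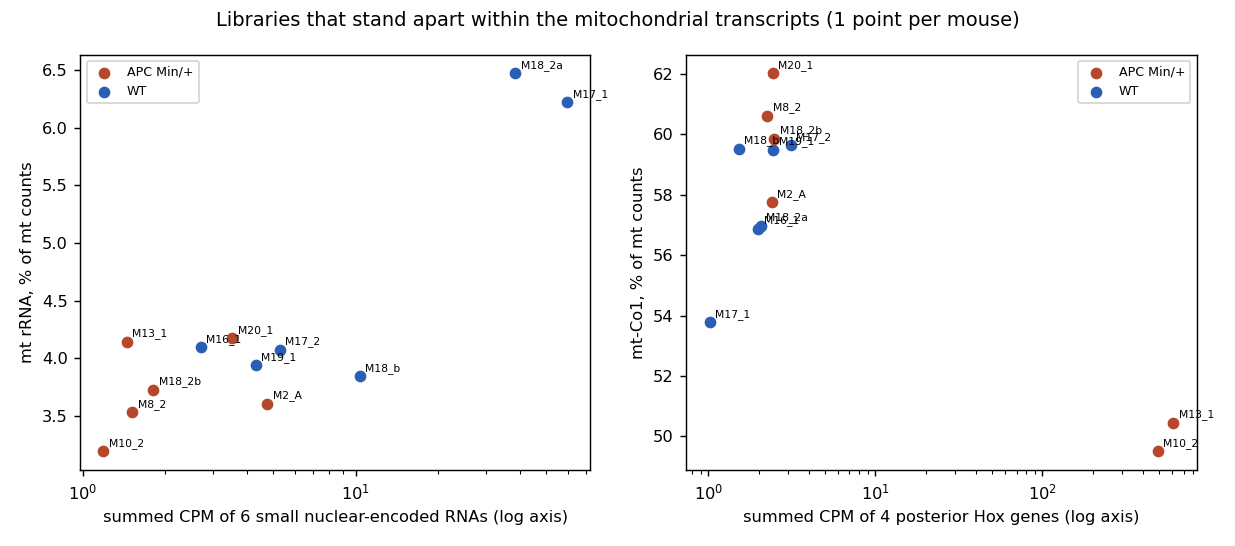
Left, percent of mitochondrial counts on the 2 rRNAs against the summed CPM of 6 small nuclear-encoded RNAs (log axis). Right, percent of mitochondrial counts on mt-Co1 against the summed CPM of 4 posterior *Hox* genes (log axis). Each point is 1 mouse (APC Min/+ red, WT blue), and M18_2a and M17_1 stand apart on the left, M10_2 and M13_1 on the right.

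The nuclear partners of these genes were read from the same edgeR fit. Of 76 nuclear genes for subunits of oxidative phosphorylation, 0 were called and 0 had an unadjusted p under 0.05 in edgeR. The log2 fold change was below 0 for 68 of the 76 (89.5%), with a median of -0.11. Without M10_2 and M13_1 it was below 0 for 37 of the 76, with a median of 0.004, so this rested on those 2 mice (fits of the lists without pairs of mice were chosen after seeing the data). Without M17_1 and M18_2a it was below 0 for 74. By complex, in all 12 mice, it was below 0 for 35 of 36 genes of complex I, 3 of 4 of complex II (which has no mitochondrially encoded subunit), 6 of 9 of complex III, 11 of 11 of complex IV and 13 of 16 of the ATP synthase. The genes of lowest p in each complex were Ndufa2 (-0.23), Ndufb10 (-0.17) and Ndufa3 (-0.19), Sdhb (-0.17), Sdha (-0.07) and Sdhc (0.08), Uqcrb (-0.15), Uqcrq (-0.18) and Uqcrc2 (-0.12), Ndufa4 (-0.21), Cox7b (-0.17) and Cox6b1 (-0.18), and Atp5o, Atp5h and Atp5j2 (-0.18, -0.17 and -0.17), all log2 fold changes. Together the 76 took from 1.34% to 1.78% of the counts of an APC Min/+ mouse and from 1.40% to 1.73% of those of a WT mouse, a narrower range than that of the mitochondrial genes.

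The genes of mitochondrial transcription were near 0. Of 15 genes for transcription and replication of mitochondrial DNA, 5 had a log2 fold change below 0, with a median of 0.01, and 0 had an unadjusted p under 0.05. The RNA polymerase Polrmt was at 0.09 (standard error 0.21), Tfam, which packages the DNA and starts transcription, at -0.04 (standard error 0.11) and Tfb2m, the initiation factor, at -0.06 (standard error 0.09), all on the log2 fold change scale. The genes of lowest p in this list were the exonuclease Mgme1 (0.13), the helicase Twnk (0.11) and Mterf3 (-0.11). Of 28 genes for processing and stability of mitochondrial RNA, 21 were below 0, with a median of -0.05 (18 and -0.02 without M10_2 and M13_1). The 21 included Lrpprc (-0.14) and Slirp (-0.15), which together stabilise mitochondrial mRNAs, the ribosome-associated Ptcd3 (-0.15) and the rRNA methyltransferase Mrm1 (-0.14). Of 6 nuclear regulators of mitochondrial genes, 1 was below 0 and the median was 0.11 (6 and -0.02 without M10_2 and M13_1), with Ppargc1a at 0.16, Ppargc1b at 0.27, Gabpa at 0.10 and Pprc1 at 0.12. None of these differences exceeded the spread between mice at an unadjusted p under 0.05.

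None of the 6 small RNAs used above was called in this quasi-likelihood fit either. All 6 had a log2 fold change below 0, with a median of -3.20, and 5 an unadjusted p under 0.05, led by Rmrp (-3.97), Rn7s2 (-3.32) and Rn7s1 (-3.33), with an FDR of 0.908 each in edgeR. Without M17_1 and M18_2a, which these RNAs singled out, 5 were below 0, the median was -1.38 and 4 had an unadjusted p under 0.05. The authors, who used edgeR with the same thresholds, list Rmrp, Rn7sk and Rpph1 as lower in APC Min/+ mice. Which edgeR test they used is not named in the sources used here.

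Cell-type markers also varied between the libraries. All 7 epithelial markers were counted in every mouse, with a summed level of 9499 to 11458 CPM in APC Min/+ and 7262 to 12609 CPM in WT mice, where the lowest sum was that of M17_1. Krt18 alone was at its WT maximum in M17_1, with 310 CPM. The 6 smooth muscle markers summed to 4509 to 6890 CPM in APC Min/+ and 4494 to 6215 CPM in WT mice, and 3 of the 6 (Des, Cnn1 and Actg2) were higher in APC Min/+ mice at an unadjusted p under 0.05 in edgeR, at an FDR of 0.908 (2 of the 6 markers without M10_2 and M13_1). The 6 lymphoid and plasma cell markers summed to 269 to 3111 CPM in APC Min/+ mice and 648 to 3015 CPM in WT mice. Their sum was highest in M2_A and M17_1, the mice with the highest mitochondrial share of their genotypes, and lowest in M13_1. Igha, Igkc and Jchain made up most of that sum. Of the rest, Cd3e was lowest in M13_1 as well. Cd79a was instead highest in M13_1, at 7.49 CPM against 0.196 to 2.44 CPM in the other mice. Ptprc was at 35.4 CPM in M13_1, within a range of 18.5 to 38.2 CPM over all mice. The 5 fat cell markers summed to 25.4 to 688 CPM and 56.2 to 352 CPM, and none was at 0 in any mouse. The part of these cells in the mitochondrial share was not tested.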

How the data were processed

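The authors aligned paired 100-base reads to GRCm38.p2 with STAR 2.3.0 and counted them per gene with featureCounts (per the processing notes of the labels). They deposited 1 table of raw counts and gene lengths per mouse. The annotation release, strand setting and treatment of multiply aligned reads are not given in the sources used here. Genotypes were compared over all 12 mice with edgeR 4.0.16 (R 4.3.3, quasi-likelihood F test, TMM normalization, genes reaching 10 counts in 3 or more mice), which was tested on simulated data, and calls needed an FDR under 0.05 and a 2-fold or larger difference. Standard errors follow from the F statistic. DESeq2 1.42.0, edgeR's exact test, other scalings and fits without single mice or pairs of mice were alternatives. No batch is given in the labels, and the mice are separate animals. RPKM used the lengths in the files and the total counts. Log2 ratios of single genes were compared with exact permutation tests (Python 3.11.15) and Benjamini-Hochberg adjustment over the 6 ratios. The Wilson intervals were computed with scipy 1.17.1. The lengths of the 37 members in the files equal those of GENCODE M21, another release for the same genome build, whose transcripts gave the sequences and nuclear matches. Copies were aligned without gaps, and identities were not used where a copy holds insertions or deletions.

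All members are accounted for. Described in full were the markers mt-Co1, mt-Nd1, mt-Cytb and mt-Rnr2, the highest and lowest gene and the gene of lowest p of each class, mt-Nd6 and the genes of the ratios. From each nuclear list the 3 genes of lowest p and Polrmt, Tfam, Tfb2m, Lrpprc, Slirp and Ppargc1a were named. The members and lists were chosen with earlier results of these data known.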

Additional observations from a re-analysis of the deposited data

Results flagged for a closer look

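In 5 of 66 comparisons of 6 mice of 1 genotype, a single mouse lay farther from the others than Dixon's 95% critical value for 6 samples, where chance gives about 1 in 20. All 5 were the WT mouse M17_1. The comparisons reuse the same mice and overlapping measures, so they are not independent, and the 5 cannot be weighed against 1 in 20 as separate tests. Its mitochondrial genes took 12.7% of all counts, against 6.00% to 8.08% in the other WT mice, and its mitochondrial mRNAs 11.9%, against 5.75% to 7.56%. It also had 6016 CPM of mt-Nd2 (others 2123 to 3368), 6331 CPM of mt-Nd4 (others 2416 to 3788) and 17425 CPM of mt-Cytb (others 6920 to 10678). M17_1 also had the most small RNA without poly(A) tails. Among the WT mice it had the highest sum of lymphoid and plasma cell markers and the lowest sum of epithelial markers. Single markers went the other way. Its Krt18 was the highest of the WT mice (310 CPM), its Epcam (1346 CPM) was above that of M17_2 (1318 CPM), and its Cd79a (1.62 CPM) was below that of M16_1 (2.44 CPM). The part of these in the mitochondrial share of M17_1 was not tested.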

How the results depend on the processing

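No mitochondrial gene passed the threshold under any of the alternatives run, and the number of the 22 with a log2 fold change below 0 stayed between 20 and 21 when 1 mouse was left out and was 15 with the mitochondrial total as library size. The number at an unadjusted p under 0.05, 5 in the reported fit, was 2 with the mitochondrial total as library size, 1 without M10_2 and M13_1, 1 without M17_1 and M18_2a and 2 without M8_2 and M10_2 (added after seeing the data, with 1 of the 2, mt-Ts1, higher in APC Min/+ mice). Leaving out 1 mouse gave 1 to 12, with 12 without M2_A, 1 without M17_1 and 1 without M18_2a, and 3 without each of M8_2, M10_2 and M13_1. The mitochondrial total as library size centres the members near 0 by construction and moved the median of all genes tested to 0.416, so signs on that scale only place a gene against the mitochondrial mean. There the log2 fold change was 0.0227 for mt-Nd1, 0.0704 for mt-Nd2, 0.104 for mt-Nd4, 0.0197 for mt-Nd5, 0.149 for mt-Cytb and 0.313 for mt-Tp. That of mt-Tp was also 0.0479 without M10_2 and M13_1, 0.515 without M17_1 and M18_2a and 0.0504 without M8_2 and M10_2, and between -0.324 and 0.198 with 1 mouse left out. Without M10_2 and M13_1 the log2 ratio difference was 0.00585 for mt-Rnr1 to mt-Rnr2 and 0.0656 for mt-Co1 to mt-Nd1, and the latter lay between -0.0953 and 0.00702 with 1 mouse left out. The cause of the changes without these mice was not tested. The difference in the mitochondrial share of counts lay between -2.35 and -0.913 percentage points with 1 mouse left out. Over all genes tested, DESeq2 called 27 and edgeR's exact test 10, against 0 in the reported fit. Depth limits only the tRNAs, whose summed share had 95% counting intervals of 6.10% to 12.2% of its value to either side. No paired analysis was possible because replicates were numbered in accession order and the labels do not say that a number within a mouse name (such as M18) marks a pair, litter or cage.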
